A study of Bos taurus with 14 samples.

Results

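Mammary gland transcripts were compared between cows whose milk of the previous lactation had been rich or poor in fat. Fat content was computed for each cow as 100 times the fat over the milk of the first 100 days of that lactation, both taken from the labels, which give no unit. Cows at 4.0 or more formed the high class (n = 8) and cows under 4.0 the low class (n = 6), so that all 14 of the 14 cows of the series entered. All cows were Holstein-Friesian, were kept on a basal diet and were paired in 7 blocks, and 1 array was hybridised per cow. In each block 1 cow received a concentrate mixture with linseed (Omega) and 1 a mixture without it (Control). Feeding ran from week -3, counted from expected calving, until week 6 of lactation. The high class held 4 Omega and 4 Control cows of blocks 305 to 308, and the low class held 3 Omega and 3 Control cows of blocks 302 to 304. The comparison was fitted over the 14 cows with diet as a covariate and repeated in the 7 Omega cows alone.

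Milk fat is made in the secretory cells of the gland. Some of its fatty acids are built there from acetate and ketone bodies, others are taken up from blood lipoproteins after lipoprotein lipase has freed them, and all are joined to glycerol and packed into droplets. The droplets leave the cell wrapped in the milk fat globule membrane. How far these transcripts differed between cows of different earlier fat content was the question of the comparison, and tissue was taken after the lactation of the fat record, on a day not given in the sources used here.

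Fat content was 4.46 ± 0.29 (SD, n = 8) in the high class, with a lowest value of 4.04, a median of 4.50 and a highest value of 4.81. It was 3.53 ± 0.24 (n = 6) in the low class, with a lowest value of 3.09, a median of 3.58 and a highest value of 3.78. The cows nearest to the limit of 4.0 were therefore at 3.78 and 4.04. In the Omega cows fat content was 4.34, 4.08, 4.55 and 4.65 in blocks 305 to 308 and 3.57, 3.78 and 3.49 in blocks 302 to 304. In the Control cows the values were 4.81, 4.04, 4.45 and 4.79 against 3.09, 3.64 and 3.59. These values chose the classes and carry no test. Earlier milk was 3728 ± 1000.4 in the high class and 3853 ± 929 in the low class, and fat was 168 ± 50.5 and 137 ± 39.4, in the units of the labels. Fat ranged from 86 to 222 in the high class and from 85 to 182 in the low class, so that these ranges overlapped.

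Other recorded traits were set side by side by exact two-sided permutation of whole blocks, since the classes are made of whole blocks. The 7 blocks allow 35 splits and a smallest p of 0.0286. Protein content of the earlier milk was 3.23 ± 0.17 in the high class and 3.03 ± 0.25 in the low class (exact p = 0.114, Benjamini-Hochberg adjusted 0.800). Parity as given in the labels was 3.25 ± 1.67 and 2.67 ± 1.97 (exact p = 0.743, adjusted 0.800). The design text counts parities differently, and cows labelled parity 1 also had a milk and fat record of a previous lactation. Expected calving was 31.5 ± 17.0 and 23.0 ± 16.0 days after that of the earliest cow (exact p = 0.400, adjusted 0.800). The 7 traits and array measures compared all had an adjusted value of 0.800, and of 0.483 to 0.763 over the 3003 splits of single cows. The 2 Omega and Control cows of a block were always in the same class, and blocks had been formed by parity, calving date and milk performance, so class and block cannot be told apart.

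The tissue label was borne out by the milk protein transcripts. PAEP, which encodes beta-lactoglobulin, lay between 14.74 and 14.79 log2 in the high class and between 14.70 and 14.81 in the low class. CSN3, the kappa-casein gene, lay between 14.63 and 14.74 in all 14 cows, and LALBA, the lactose synthase cofactor alpha-lactalbumin, between 14.50 and 14.60. The largest value in the table was 14.8, so these transcripts sat at the upper end of the scale, where differences are compressed.

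The arrays of 2 cows stood apart, the Control cows of blocks 302 and 304, and both belonged to the low class. On the first principal component, which carried 49.0% of the variance, they were at 47.1 and 50.6, while the other 12 arrays lay between -19.7 and 10.7. Their median correlations with the other arrays were 0.959 and 0.951, against 0.980 to 0.988 for the other 12. SAA3, the serum amyloid A gene of the udder, was at 12.80 and 13.82 log2 in these cows and between 6.70 and 10.20 in the other 12. Differences over 14 cows are therefore set beside those over the 12 cows without them. Among these 12 the low class held 3 Omega cows and, of the Control cows, only that of block 303. The comparisons over 14 and 12 cows share cows with each other and with that within the Omega cows. Their values therefore stand side by side and are not separate evidence.

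**Figure D1:**
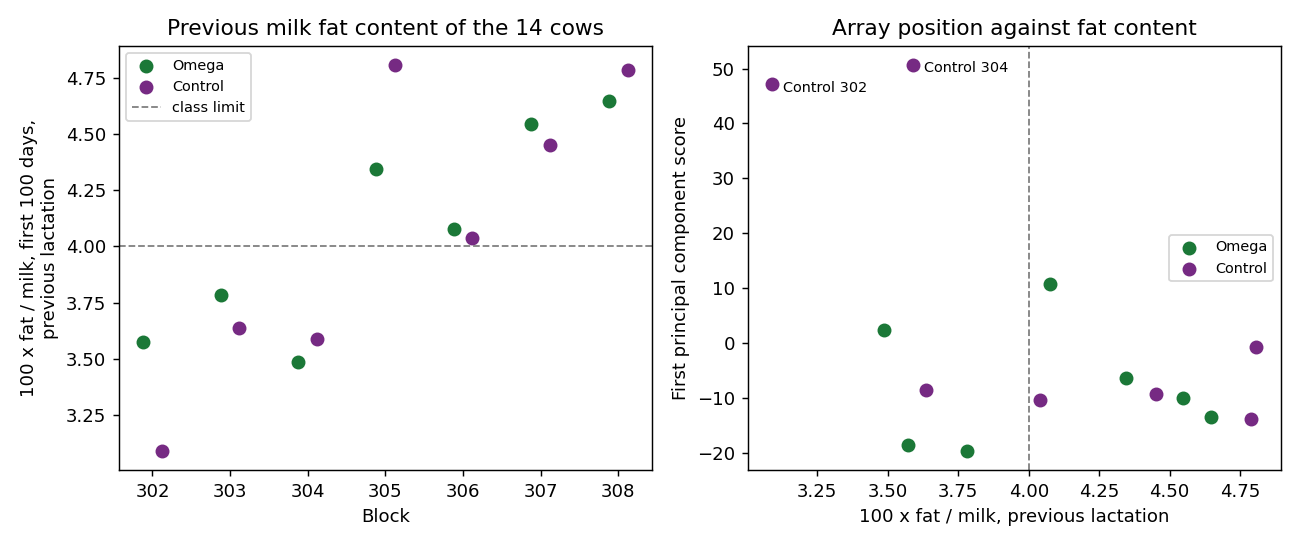
Fat content of the earlier milk for each of the 14 cows by block (left plot, computed from the labels) and the first principal component score of the 10740 probe sets against fat content (right plot), with diet shown by colour and the class limit as a dashed line. The classes are divided at 4.0 with the nearest cows at 3.78 and 4.04, and on the first component the Control cows of blocks 302 and 304 sit at 47.1 and 50.6, above all other cows.

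No transcript passed the test between the fat classes. In limma with Benjamini-Hochberg adjustment at 0.05, 0 of 10740 probe sets were called over the 14 cows (0%), and the smallest adjusted p was 0.693. An unadjusted p under 0.05 was reached by 656 probe sets (6.11%), where 0.05 of all probe sets is 537, and 308 of them were higher (2.87%) and 348 lower (3.24%) in the high class. Of all probe sets 51.4% had a difference above 0. The 95% confidence interval reached 0.24 log2 to either side of a difference in the median, a factor of 1.18. Without the 2 cows that stood apart the count was again 0, the smallest adjusted p was 0.627, and 327 probe sets (3.04%) had an unadjusted p under 0.05, of which 179 were higher (1.67%) and 148 lower (1.38%), and 50.5% of all probe sets had a difference above 0. Each array was a separate cow, so the limma p-values measure the spread between cows. Class was constant within a block, and the fits above treat the 2 cows of a block as separate. With the block as a random effect over 14 cows the count was 0 and the smallest adjusted p in limma was 0.698. In whole tissue, fewer cells of a type and less RNA per cell cannot be told apart.

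The named transcripts with the smallest p on the higher side led with PHYHIPL, a gene of little known function named for its likeness to a binding partner of phytanoyl-CoA hydroxylase. In the Omega cows PHYHIPL was at 6.61, 5.75, 8.34 and 8.26 log2 in the high class and at 7.08, 5.97 and 5.24 in the low class. Among Control cows it was at 7.85, 8.10, 7.59 and 7.99 in the high class and at 5.45, 6.39 and 4.16 in the low class. The classes did not overlap in the Control cows, where 2 of the 3 low class cows were those that stood apart. In the Omega cows they overlapped, and the high class cow of block 306 was below 2 of the 3 low class cows. PHYHIPL was 1.14 higher in the Omega cows and 2.55 higher in the Control cows, and the interaction tested below was not called for it. The difference over 14 cows was 1.85 log2 (95% interval 0.83 to 2.86), a ratio of 3.59, with an adjusted p of 0.693 in limma, and over 12 cows it was 1.25.

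SEC16B, which organises the sites where cargo leaves the endoplasmic reticulum, had the next largest difference among them. It ranged from 5.57 to 6.52 log2 with a median of 6.31 in the high class, and from 4.58 to 6.03 with a median of 5.36 in the low class. The difference was 0.84 (0.38 to 1.30) and was 0.51 over 12 cows, 0.44 in the Omega cows and 1.24 in the Control cows. NOSTRIN, an adaptor that binds endothelial nitric oxide synthase, ranged from 9.02 to 9.78 in the high class and from 7.90 to 9.52 in the low class. Its difference was 0.76 (0.34 to 1.18) over 14 cows, 0.65 over 12 cows and 0.28 in the Omega cows. The classes overlapped for both genes, and the lowest values belonged to Control cows of the low class.

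Smaller values on the higher side came from genes of several kinds. IVD, the isovaleryl-CoA dehydrogenase of leucine breakdown, was 0.42 log2 higher (0.15 to 0.69), 0.21 higher over 12 cows and 0.08 in the Omega cows. COQ6, a monooxygenase of ubiquinone synthesis, was 0.46 higher (0.18 to 0.74), and HUS1, a subunit of the DNA damage checkpoint clamp, 0.50 higher (0.23 to 0.78). PRELP, a small proteoglycan of the extracellular matrix, was 0.32 higher (0.15 to 0.50), BTG3, an antiproliferative protein, 0.32 (0.12 to 0.51), NRBP2, a pseudokinase, 0.30 (0.13 to 0.47) and TMEM63A, a mechanically gated ion channel, 0.28 (0.12 to 0.45). Over 12 cows these 7 differences lay between 0.19 and 0.31. All had an adjusted p of 0.693 in limma.

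On the lower side the smallest p belonged to MRPL32, a protein of the large subunit of the mitochondrial ribosome. It was at 6.11, 6.05, 6.22 and 6.18 log2 in the Omega cows of the high class and at 6.38, 6.55 and 6.26 in those of the low class. The Control cows had 6.15, 6.18, 5.97 and 6.22 against 6.49, 6.77 and 6.62. Every low class cow was above every high class cow. The difference was -0.37 (-0.55 to -0.20, adjusted p = 0.693), -0.38 over 12 cows, -0.26 in the Omega cows and -0.49 in the Control cows.

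FAP, a serine protease of activated fibroblasts, was at 4.56, 5.08, 4.81 and 5.01 log2 in the Omega cows of the high class and at 5.40, 5.52 and 5.37 in those of the low class, without overlap. Its values among Control cows were 4.94, 5.01, 5.42 and 4.61 against 5.73, 5.76 and 5.06, where the ranges overlapped. Its difference was -0.54 (-0.84 to -0.25) over 14 cows, -0.63 over 12 cows and -0.57 in the Omega cows. HAS2, a hyaluronan synthase, ranged from 5.84 to 6.30 with a median of 6.04 in the high class and from 6.09 to 6.97 with a median of 6.85 in the low class. HAS2 differed by -0.56 (-0.84 to -0.28), by -0.51 over 12 cows and by -0.39 in the Omega cows. The value of ROR2, a receptor tyrosine kinase of Wnt signalling, was -0.25 (-0.40 to -0.09), and -0.24 over 12 cows, at levels between 3.15 and 3.94, under the 30th percentile of the probe set means, which was 4.59.

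Interferon-induced transcripts were also named on the lower side. OAS1Y, an oligoadenylate synthetase that senses double-stranded RNA, ranged from 5.35 to 6.13 log2 in the high class (median 5.66) and from 5.84 to 6.93 in the low class (median 6.16). The difference of OAS1Y was -0.49 (-0.80 to -0.18) and was -0.34 over 12 cows, -0.53 in the Omega cows and -0.46 in the Control cows. RSAD2, the antiviral protein viperin, differed by -0.35 (-0.53 to -0.17), by -0.34 over 12 cows and by -0.29 in the Omega cows. The list of interferon-stimulated genes as a whole varied with the cows included: of 12 measured, 3 were higher and 9 lower over 14 cows with a median of -0.20, 6 of 12 were higher over 12 cows with a median of -0.00, and 9 of 12 were higher in the Omega cows with a median of 0.04.

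**Figure D2:**
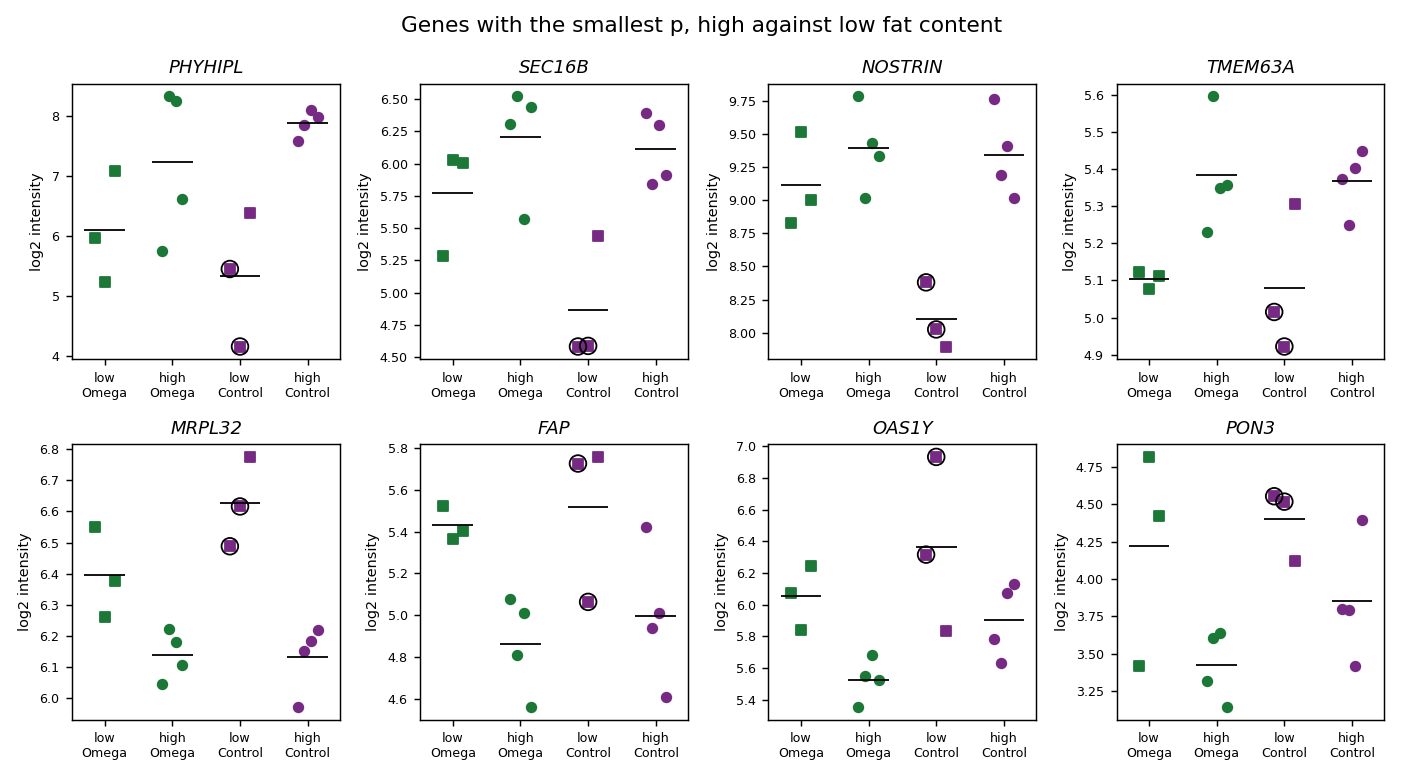
Log2 intensity of 8 named transcripts in each cow by class and diet, where each point is 1 cow (Omega green, Control purple), squares are the low class, circles the high class, bars the group means and rings the Control cows of blocks 302 and 304. Every low class cow is above every high class cow for MRPL32 (lowest 6.26 against highest 6.22), whereas the classes overlap for PHYHIPL among the Omega cows.

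The remaining transcripts named on the lower side were enzymes and processing factors. PON3, a lactonase of the paraoxonase family, was dim, with medians of 3.62 and 4.47 log2 and a difference of -0.67 (-1.10 to -0.24), which was -0.63 over 12 cows and -0.79 in the Omega cows. GPI, the glycolytic isomerase of glucose phosphate, differed by -0.37 (-0.57 to -0.17) and by -0.29 over 12 cows. TRIM32, a ubiquitin ligase, differed by -0.34 (-0.54 to -0.15) and by -0.21 over 12 cows, and RRP15, a factor of ribosomal RNA processing, by -0.29 (-0.45 to -0.13) and by -0.26 over 12 cows. None of these passed the adjustment (0.693 for each in limma).

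The classes did not overlap for 3 probe sets higher in the high class (0.0279% of all) and 3 lower (0.0279%). These were chosen after their values were seen. MRPL32 was one of the lower set. DYNLRB1, a light chain of the dynein motor, lay between 8.36 and 8.63 log2 in the high class and between 8.64 and 8.90 in the low class, and the third was without a name. The higher set was TBC1D10A, a GTPase-activating protein of Rab proteins (5.61 to 6.04 against 5.24 to 5.61), RANBP3, a cofactor of nuclear export (6.80 to 7.12 against 6.72 to 6.78), and MAP7, a microtubule-binding protein (6.98 to 7.15 against 6.27 to 6.96). For all 6 the gap between the classes was smaller than the range within either class.

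Transcripts of milk fat synthesis were examined as lists. Fatty acid synthesis in the gland was represented by 6 measured genes of 11 listed, of which 3 were higher over 14 cows, with a median difference of 0.18 log2. The measured genes were ACACA, ACSS2, ACLY, THRSP, ACSS1 and OXSM. FASN, the fatty acid synthase, was not among them, so the list covers the path only in part. With the filter on dim probe sets, which removed 1 of the 6, the median was -0.09. ACACA, the acetyl-CoA carboxylase that makes malonyl-CoA, was at 6.46, 5.93, 6.39 and 6.24 in the Omega cows of the high class and at 6.33, 6.44 and 6.27 in those of the low class. Control cows had ACACA at 6.24, 6.70, 6.38 and 6.24 against 4.88, 6.13 and 4.78, the 2 values under 5 belonging to the cows that stood apart. The difference was 0.52 (0.00 to 1.03, adjusted p = 0.693) over 14 cows, 0.02 over 12 cows and -0.09 (-0.41 to 0.23) in the Omega cows.

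ACSS2, which activates acetate, gave 0.54 (-0.05 to 1.14) over 14 cows, 0.00 over 12 cows and 0.17 in the Omega cows. ACLY, the citrate lyase, was -0.18 over 14 cows and 0.08 over 12 cows. THRSP, a small protein tied to lipogenesis, kept more of its value. It was at 4.07, 3.94, 4.00 and 4.72 in the Omega cows of the high class against 4.39, 3.61 and 3.79, and at 3.99, 4.08, 3.69 and 3.86 in the Control cows against 2.98, 3.51 and 3.28. The Control cows did not overlap and the Omega cows did, at a dim level. Its difference was 0.45 (0.12 to 0.79, adjusted p = 0.693) over 14 cows, 0.30 over 12 cows and 0.25 in the Omega cows. Over 12 cows all 6 genes of the list had values above 0, with a median of 0.07.

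Of 10 measured genes of desaturation and elongation 6 were higher over 14 cows (median 0.03) and 6 over 12 cows (median 0.06). SCD, the desaturase that makes oleate in milk, ranged from 13.52 to 13.87 log2 in the high class and from 12.65 to 13.86 in the low class, with a difference of 0.30 (-0.06 to 0.67) over 14 cows, -0.03 over 12 cows and 0.03 in the Omega cows. FADS2, a desaturase of long polyunsaturated fatty acids, was 0.33 over 14 cows, 0.09 over 12 cows and -0.00 in the Omega cows. LPL, lipoprotein lipase, ranged from 11.49 to 13.04 with a median of 12.79 in the high class and from 11.07 to 13.30 with a median of 12.25 in the low class. The range of the high class lay inside that of the low class, and the difference of LPL was 0.50 (-0.30 to 1.29) over 14 cows, -0.10 over 12 cows and -0.08 (-1.11 to 0.95) in the Omega cows. The fatty acid carrier CD36 was 0.31 over 14 cows and -0.15 over 12 cows, the binding protein FABP3 0.21 and -0.10, the acyl-CoA synthetase ACSL1 0.24 and -0.02, and the lipoprotein receptor VLDLR 0.42 and 0.21. In the list of uptake, binding and activation, 11 of 14 genes were higher over 14 cows with a median of 0.14, and 7 of 14 over 12 cows with a median of 0.00.

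Assembly and secretion of fat followed. Of 24 measured genes of triacylglycerol synthesis and lipid droplets, 20 were higher over 14 cows (median 0.11), 8 over 12 cows (median -0.07), 9 in the Omega cows (median -0.05) and 22 in the Control cows (median 0.30). GPAM, the first acyltransferase on glycerol phosphate, was 0.11 over 14 cows and -0.16 over 12 cows, DGAT1, which adds the last fatty acid, 0.20 and 0.15, the droplet protein CIDEA 0.22 and -0.35, and the droplet coat protein PLIN2 0.15 and -0.07. GPD1, which makes glycerol phosphate, was 0.48 (0.04 to 0.91) over 14 cows and 0.05 over 12 cows. PLIN1, a droplet coat protein of fat cells, was 0.23 (0.01 to 0.45) and 0.29, and 0.36 in the Omega cows, at a dim mean of 3.78 log2.

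Of 12 genes of the milk fat globule membrane, 10 were higher over 14 cows (median 0.21), 2 over 12 cows (median -0.10), 3 in the Omega cows (median -0.08) and 9 in the Control cows (median 0.43). BTN1A1, the butyrophilin of that membrane, was 0.22 (-0.10 to 0.54) over 14 cows and -0.08 over 12 cows, and XDH, its partner xanthine dehydrogenase, was 0.07 and -0.13. The mean of this list, centred on each gene, was -0.42 and -0.83 in the cows that stood apart and between -0.15 and 0.35 in the other 12. No gene of the list had an unadjusted p under 0.05 over 14 cows, beside 2.87% of all probe sets on the higher side.

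Of 14 measured lipid regulators 12 were higher over 14 cows (median 0.06), 3 over 12 cows (median -0.03) and 2 in the Omega cows (median -0.07). SREBF1, the sterol-regulated activator of lipogenic genes, was 0.20 (-0.05 to 0.45) over 14 cows and 0.03 over 12 cows. INSIG1 was 0.36 and -0.04, with 0.30 in the Omega cows, and the nuclear receptor PPARG was 0.12 and -0.22. Of 15 cholesterol genes 14 were higher over 14 cows (median 0.18), 5 over 12 cows (median -0.03) and 11 in the Omega cows (median 0.07).

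Of 13 measured genes for the use of ketone bodies and branched-chain amino acids, 11 were higher over 14 cows (median 0.20), 9 over 12 cows (median 0.10), 9 in the Omega cows (median 0.08) and 10 in the Control cows (median 0.22), and 2 of 13 had an unadjusted p under 0.05 on the higher side over 14 cows, where 2.87% of all probe sets did. BCAT2, the mitochondrial aminotransferase of branched-chain amino acids, was 0.43 (0.09 to 0.77, adjusted p = 0.693) over 14 cows, 0.24 over 12 cows, 0.38 in the Omega cows and 0.48 in the Control cows. PCCA, a subunit of propionyl-CoA carboxylase, was 0.14, 0.18, 0.17 and 0.11 in the same order. Fatty acid oxidation had 10 of 22 genes higher over 14 cows (median -0.01), 12 over 12 cows (median 0.01) and 13 in the Omega cows (median 0.02).

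**Figure D3:**
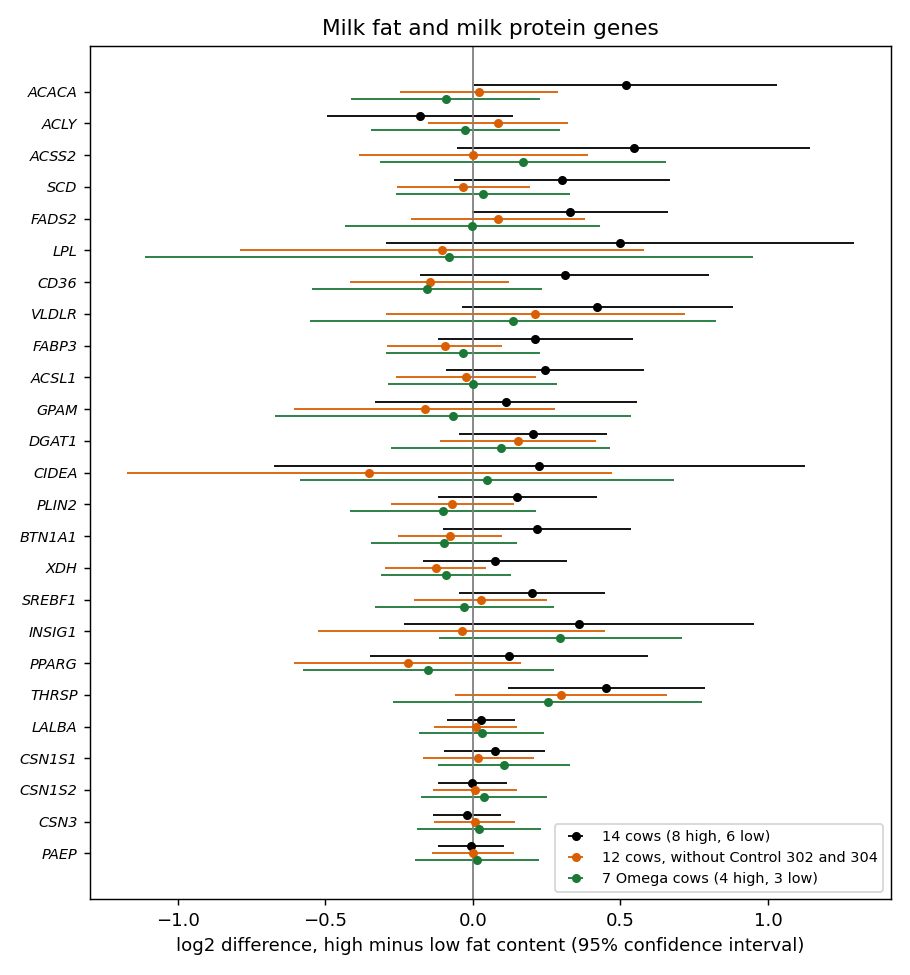
Difference between the classes, high minus low, for milk fat and milk protein genes, with points for the log2 difference and lines for the 95% confidence interval over 14 cows, over 12 cows and in the 7 Omega cows. ACACA (0.52 over 14 cows and -0.09 in the Omega cows) and LPL (0.50 and -0.08, with a wide interval) lie above 0 over 14 cows and near 0 in the Omega cows. Other lipid genes differ from this, with INSIG1 (0.36 and 0.30) and THRSP (0.45 and 0.25) above 0 in both and ACLY (-0.18 and -0.03) under 0 in both. The caseins stay near 0 in both, toward the upper end of the scale, where differences are compressed.

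Milk protein transcripts were close in both classes, toward the upper end of the scale, where differences are compressed. The differences over 14 cows were 0.03 (-0.09 to 0.14) for LALBA, 0.07 (-0.10 to 0.25) for the casein gene CSN1S1, -0.00 (-0.12 to 0.11) for CSN1S2, -0.02 (-0.13 to 0.10) for CSN3 and -0.01 (-0.12 to 0.11) for PAEP. Over 12 cows they were 0.01, 0.02, 0.01, 0.01 and 0.00 in the same order. LTF, the iron-binding defence protein lactoferrin, varied widely, from 10.15 to 12.90 log2 in the high class and from 8.69 to 14.37 in the low class. Its difference was -0.58 (-2.22 to 1.05) over 14 cows, 0.74 over 12 cows, 1.25 (-0.51 to 3.00) in the Omega cows and -2.42 in the Control cows. SAA3 was at 9.14, 10.20, 7.43 and 7.23 in the Omega cows of the high class and at 6.75, 7.10 and 7.25 in those of the low class, with overlap. Its difference there was 1.47 (0.04 to 2.90) with an unadjusted p of 0.0456 in limma, which did not pass the adjustment. Over 14 cows the difference was -1.42 (-3.68 to 0.85). The sign of both defence genes differed between the diets, with an adjusted p of the interaction in limma of 0.223 for LTF and 0.220 for SAA3, and between 14 and 12 cows.

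Lists of other functions showed how far the 2 cows that stood apart entered the comparison. Over 14 cows complement genes had a median of -0.31 log2 (3 of 15 higher), fibroblast and connective tissue genes -0.29 (2 of 12), macrophage and monocyte genes -0.27 (2 of 10), antigen presentation genes -0.25 (1 of 12) and luminal epithelium genes -0.18 (3 of 11). Over 12 cows the medians were 0.10 (12 of 15), -0.06 (3 of 12), -0.05 (4 of 10), 0.05 (8 of 12) and 0.14 (10 of 11). The 37 measured cytosolic ribosomal protein genes had a median of -0.06 with 5 higher over 14 cows, and of 0.07 with all 37 higher over 12 cows. They were 37 of 37 higher in the Omega cows (median 0.08) and 1 of 37 in the Control cows (median -0.20), with no member at an unadjusted p under 0.05 over 14 cows or in the Omega cows. Genes of a list share the same cows, so such a count is not that of 37 separate observations.

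Cell type markers were set beside these values. The mean of the 12 fibroblast and connective tissue markers lay between 7.76 and 8.10 log2 in the high class and between 7.72 and 8.73 in the low class, and that of the 10 macrophage and monocyte markers between 5.57 and 6.09 and between 5.71 and 6.55. The mean of the 11 luminal epithelium markers lay between 8.23 and 8.70 and between 8.10 and 9.12, and that of the 10 secretory alveolar markers between 13.03 and 13.18 and between 12.78 and 13.25. The upper ends of the first 3 ranges in the low class came from the cows that stood apart, and without them the fibroblast and macrophage means, centred on each gene, were between -0.30 and 0.24 and between -0.26 and 0.11 in the low class, beside -0.26 to 0.08 and -0.39 to 0.13 in the high class. Of the fibroblast markers, SPARC was -0.43 (-0.77 to -0.10) over 14 cows and -0.22 over 12 cows, and VIM -0.47 and -0.20. The part of these cell types in the gene values above was not tested. Endothelial markers had a median of -0.03 over 14 cows (6 of 13 higher), -0.09 over 12 cows (2 of 13) and -0.20 in the Omega cows (2 of 13). In the Control cows the median was 0.18 (8 of 13 higher). CDH5, the cadherin of endothelial junctions, had the smallest p of these markers. It was at -0.27 (-0.50 to -0.04) over 14 cows, -0.32 over 12 cows, -0.28 in the Omega cows and -0.26 in the Control cows. KDR and PLVAP were among the 6 higher over 14 cows, at 0.20 and 0.13. Adipocyte markers, at a mean between 5.26 and 5.74 in all 14 cows, had a median of 0.10 over 14 cows and -0.02 over 12 cows.

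**Figure D4:**
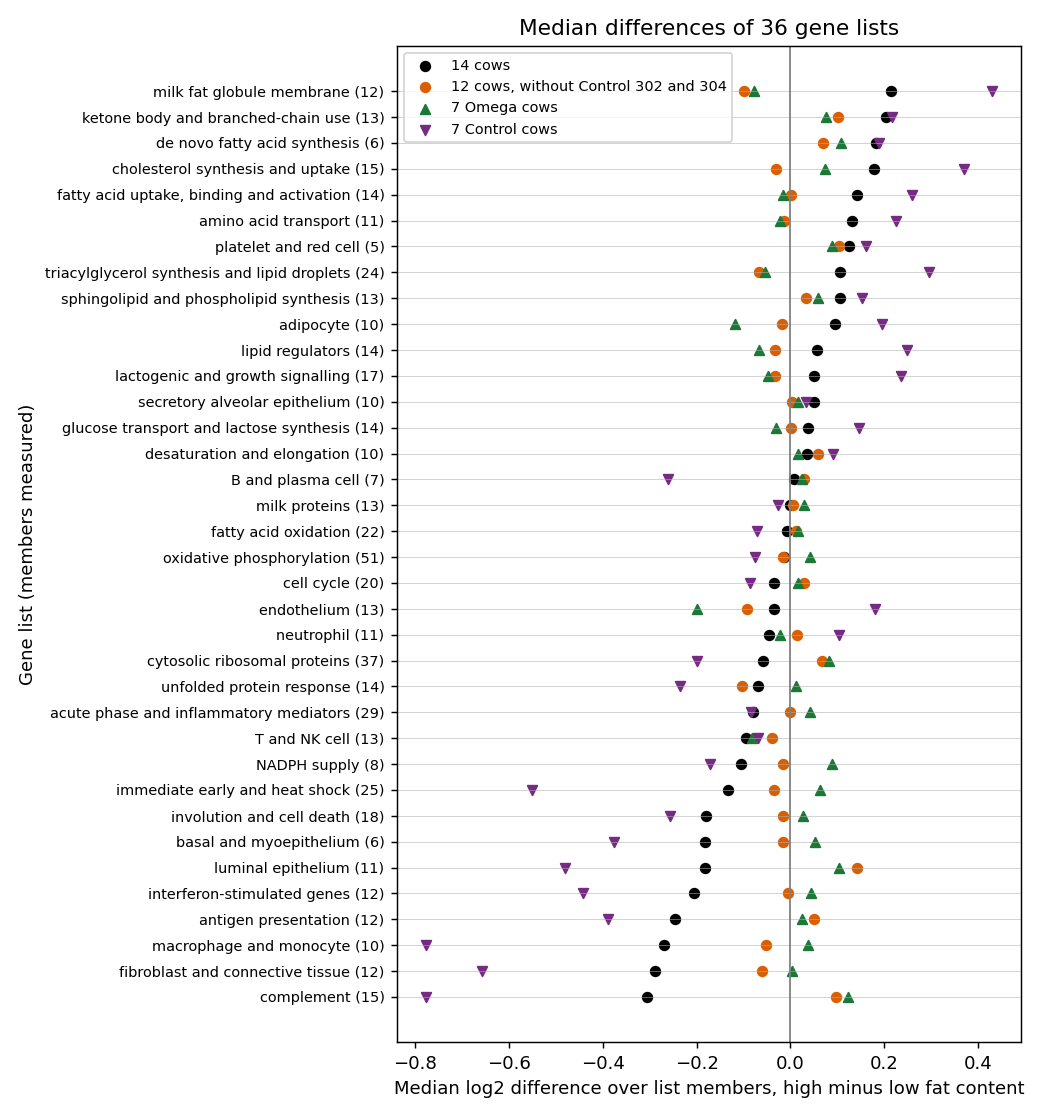
Median log2 difference between the classes, high minus low, for each of 36 gene lists over 14 cows, 12 cows, the 7 Omega cows and the 7 Control cows, with the number of measured members in brackets. The medians span -0.31 to 0.21 over 14 cows, -0.20 to 0.12 in the Omega cows and -0.78 to 0.43 in the Control cows.

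Within the linseed diet, again no transcript passed. Among the 7 Omega cows limma called 0 of 10740 probe sets (0%), with a smallest adjusted p of 0.137 for a probe set without a name, and 236 (2.2%) had an unadjusted p under 0.05, of which 109 were higher (1.01%) and 127 lower (1.18%) in the high class. Of all probe sets 49.9% had a difference above 0. The interval reached 0.31 log2 to either side in the median, a factor of 1.24. The classes of 4 and 3 cows did not overlap for 1.48% of probe sets on the higher side and 1.7% on the lower side. Of the 36 lists 25 had a median above 0 in the Omega cows and 16 over 14 cows.

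Among the named genes with the smallest p on the higher side was IL33, an alarmin cytokine of epithelial and stromal cells. It was at 8.50, 7.69, 8.77 and 6.37 log2 in the high class and at 5.64, 6.55 and 6.45 in the low class, so that 3 high class cows were above all low class cows and the cow of block 308 was not. The difference was 1.62 (0.47 to 2.77, adjusted p = 1.00), and in the Control cows it was -0.03.

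Other names on the higher side were of several kinds. BHLHE40, a transcriptional repressor, was at 6.26, 6.13, 6.26 and 6.48 log2 against 5.62, 5.82 and 5.93, without overlap, a difference of 0.49 (0.21 to 0.77). MAP3K8, a kinase upstream of MAP kinases in inflammatory signalling, was 0.39 higher (0.16 to 0.62) and IFI35, an interferon-induced protein, 0.41 (0.10 to 0.71). TDP2, which repairs adducts of topoisomerase on DNA, was 0.45 higher, RHBDL2, a rhomboid protease, 0.45, FCSK, the fucose kinase, 0.32, and TMEM128 and C23H6orf141, of no well known role, 0.39 and 0.57. All 8 had values under 0 in the Control cows, between -0.71 and -0.04, and all had an adjusted p of 1.00 in limma. Of all 10740 probe sets only 38.7% had the same sign in both diets, so an opposite sign was not particular to these genes. The cows that stood apart were in the low class of the Control cows.

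On the lower side within the Omega cows, H1-2, a linker histone, was at 6.47, 7.08, 6.68 and 6.90 log2 against 8.59, 7.81 and 7.08, a difference of -1.05 (-1.74 to -0.36) where the lowest low class cow met the highest high class cow. BOLA-DQB, a class II histocompatibility gene, was at 4.13, 4.04, 3.87 and 4.18 against 5.27, 4.28 and 5.60, a difference of -0.996 (-1.60 to -0.39), and CRTAM, a surface protein of activated T and NK cells, -0.57 (-0.90 to -0.24) at the dim end. BOLA-DQB was dim as well, its mean of 4.40 over 14 cows being under the 30th percentile of 4.59. Vascular genes were named too, APOLD1, an early response gene of endothelium, with -0.84 (-1.39 to -0.30) and RGS5, a pericyte regulator of G protein signalling, with -0.69 (-1.16 to -0.22). CREG1, a lysosomal glycoprotein, had -0.62 and ASPHD1 -0.56. FAP and OAS1Y were named here as well as over 14 cows, which include these 7. In the Control cows H1-2 was 0.82, CREG1 0.68, APOLD1 0.38, RGS5 0.21 and BOLA-DQB 0.07, where 38.7% of all probe sets had the same sign in both diets.

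**Figure D5:**
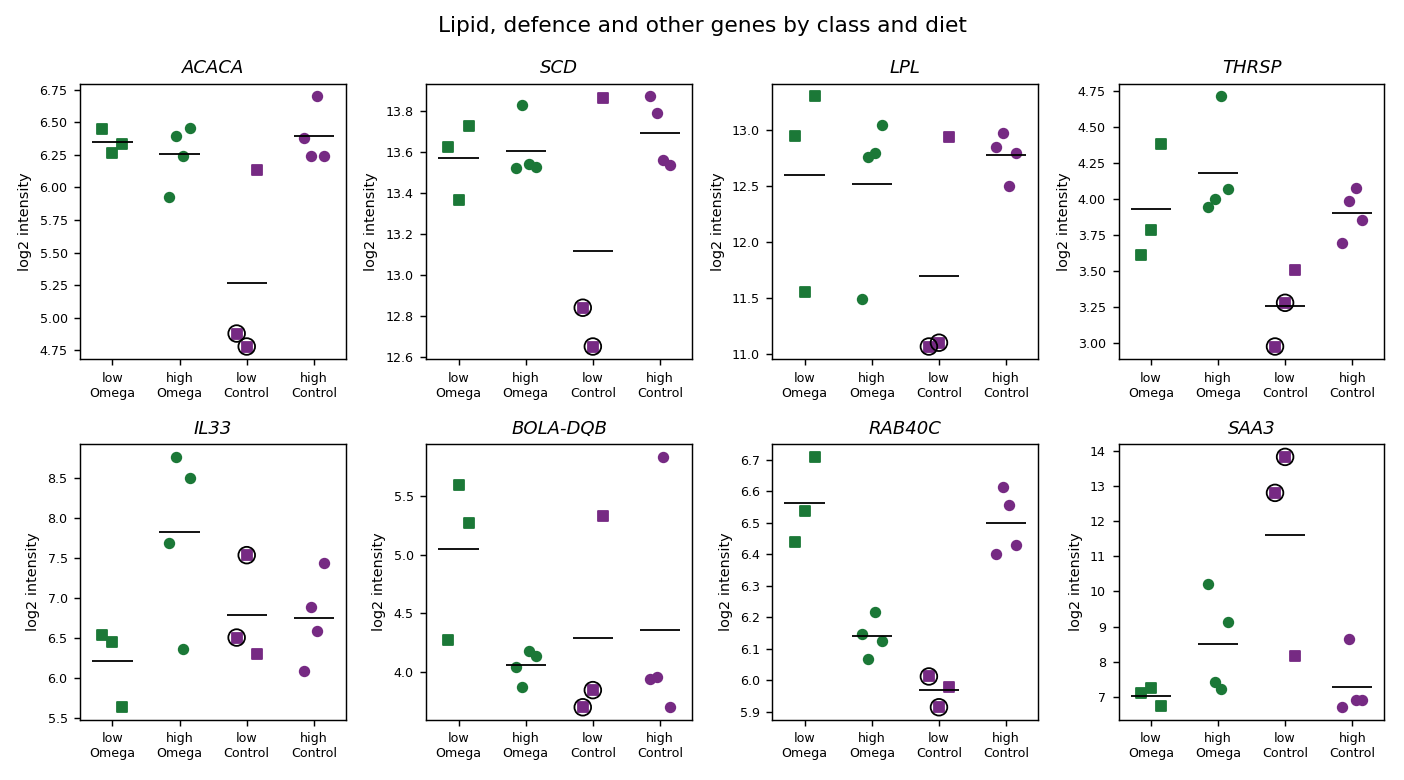
Log2 intensity of ACACA, SCD, LPL, THRSP, IL33, BOLA-DQB, RAB40C and SAA3 in each cow by class and diet, where each point is 1 cow (Omega green, Control purple), squares are the low class, circles the high class, bars the group means and rings the Control cows of blocks 302 and 304. RAB40C is lower in the high class among Omega cows and higher in the high class among Control cows, and the ringed cows are lowest for ACACA, SCD and LPL and highest for SAA3.

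The Control cows were fitted alone to set beside the Omega cows, with which they share no cow. Limma called 0 of 10740 probe sets (smallest adjusted p 0.161), and 2133 (19.9%) had an unadjusted p under 0.05, 945 higher (8.8%) and 1188 lower (11.1%). The classes did not overlap for 7.59% of probe sets on the higher side and 6.92% on the lower side, and 53.4% of all had a difference above 0. Of these, 57 were also among the 236 of the Omega cows, which is 24.2% of the Omega set and 2.67% of the Control set, and 14 of the 57 had the same sign in both. Of the 236, 79 (33.5%) had the same sign in the Control cows, where 38.7% of all 10740 probe sets did. The named genes among the 14 were MRPL32, TRIM32, TMEM63A and PON3, whose differences were -0.26, -0.27, 0.28 and -0.79 in the Omega cows and -0.49, -0.42, 0.29 and -0.55 in the Control cows. Both cows that stood apart are among the 3 low class Control cows, and with the third, Control cow 303, left out the adjusted count was 3111.

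Whether the class difference itself varied with diet was tested as an interaction. Limma called 2 of 10740 probe sets (0.0186%), and 1815 (16.9%) had an unadjusted p under 0.05. RAB40C, a small GTPase that serves as adaptor of a cullin ubiquitin ligase, was at 6.13, 6.15, 6.07 and 6.22 log2 in the Omega cows of the high class and at 6.71, 6.44 and 6.54 in those of the low class. Control cows had RAB40C at 6.61, 6.56, 6.40 and 6.43 against 6.01, 5.98 and 5.91. The classes were apart in both diets and in opposite order. The Omega difference of -0.42 minus the Control difference of 0.53 gave -0.95 (-1.24 to -0.66, adjusted p = 0.0328 in limma). Without the cows that stood apart the value was -0.94. Control cow 303 was then the only low class Control cow, so a test there cannot decide.

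The other called probe set, XM_001788500, has no name in the gene table. It was at 7.62, 7.53, 7.77 and 7.60 log2 in the Omega cows of the high class against 6.78, 6.79 and 6.95, and at 7.43, 7.07, 6.53 and 7.08 in the Control cows against 7.74, 8.02 and 8.03. Its interaction was 1.69 (1.19 to 2.19, adjusted p = 0.0328 in limma). It was 1.78 without the cows that stood apart, again with Control cow 303 as the only low class Control cow. The next named genes were NOP16, a nucleolar protein of ribosome assembly, with 0.76 (adjusted p = 0.204), and PSMD14, a deubiquitinase of the proteasome, with 0.78 (adjusted p = 0.209). With the block of the design as a fixed replicate block, 0 probe sets passed the interaction test. When each block was left out in turn, RAB40C passed only without block 303, and XM_001788500 passed without block 303, 305 or 307.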

How the data were processed

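Total RNA of mammary tissue was extracted with Trizol and hybridised as biotin-labelled cRNA to Affymetrix bovine arrays, per the labels' protocols. The deposited table holds log2 values for 10852 probe sets and 14 arrays. The submitters' processing notes name RMA and GCRMA, methods that correct, normalise and summarise such arrays, without saying which made the table. Array medians lay between 5.70 and 5.76, and each of the 14 columns belonged to 1 cow. The number of arrays limits the precision.

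Of the probe sets, 112 array controls were left out and 10740 were tested without a filter. Their accessions were matched against RefSeq genes (assembly ARS-UCD2.0), which gave 6749 a symbol (6697 symbols) and left 3991 unnamed. For 717 probe sets all 14 values were those of some other probe set as well, which left 10342 distinct ones. The brightest probe set stood for a symbol that had several.

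The class model used limma (version 3.58.1, lmFit and eBayes, under R 4.3.3) with diet as covariate over 14 cows, and p-values were adjusted by Benjamini-Hochberg over all probe sets at 0.05. Block labels and the design text give the pairing of cows, and the 2 cows of a block correlated in their deviations from the diet and class means at r from -0.28 to 0.36 across probe sets, over 0.1 in 3 of 7 blocks. Blocks lay within a class, so a block could enter the class fit only as a random effect. The 14-cow, Omega and interaction fits were first run on simulated data with planted changes. Changes of 0.5 log2 passed in 72%, 14% and 10% of cases in that order, and changes of 1 log2 in 96%, 88% and 62%. Many changes of 0.5 log2 or less would thus be missed in the Omega and interaction fits. The simulated noise was independent between cows, without shared block deviations or arrays that stood apart.

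For the 14-cow and Omega comparisons the 10 named genes with the smallest p on each side were described, since none passed the threshold, with up to 3 members of a list, 3 genes for the interaction and a set of 28 milk genes, of which 27 were measured. Some of the genes so chosen are not reported here. The 36 lists had 792 entries, of which 547 were measured. A list mean of a cow is the mean of its members' log2 values. The classes, members and lists were chosen with earlier results of these data known. The fit of the Control cows alone, the permutation of whole blocks, the genes without overlap and those given beside the Omega results were added after values were seen. Alternatives covered the block, diet term, filter, scaling, array weights, variance model, fat content as a linear term, covariates and leaving out cows or blocks.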

Additional observations from a re-analysis of the deposited data

Results flagged for a closer look

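Among the 67 named genes, 134 groups of 8 or 6 cows were examined for a cow far from the rest by Dixon's gap. Such a cow was found in 9 groups. Chance gives about 6.7 for independent groups of genes not chosen by their values. These groups share cows and many genes were chosen by small p, so the excess cannot be judged. All 9 lay in the high class. The gap is taken from the end cow to the next, so cows far out together hide each other. In the low class Control cows 302 and 304 were at 12.80 and 13.82 log2 for SAA3, the next at 8.15. The absence of the low class therefore cannot be read as a difference between the classes. Omega cow 306 was the lowest of its class for LPL (11.5 log2, the next cow at 12.5), for GPAM (11.5, the next at 12.2) and for COQ6 (5.05, the next at 5.59), and the highest for APOLD1 (6.19, the next at 5.55). Control cow 308 was the lowest for CIDEA (9.48, the next at 10.8) and the highest for PRELP (6.29, the next at 6.13). Omega cow 307 was the lowest for ROR2 (3.15), Omega cow 308 the highest for THRSP (4.72), and Control cow 306 the highest for BOLA-DQB (5.84, the next at 4.18).

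A difference between the diets in the class contrast passed the interaction test in limma for RAB40C (-0.95, adjusted p = 0.0328) and for the unnamed probe set XM_001788500 (1.69, adjusted p = 0.0328). Neither passed with the fixed replicate block of the design, where the smallest adjusted p in limma was 0.128. Without Control cows 302 and 304, Control cow 303 was the only low class Control cow, so a test there cannot decide.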

How the results depend on the processing

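Over 14 cows 0 probe sets passed in each of 23 alternatives, with smallest adjusted p from 0.0617 to 0.999. The filter at the 30th percentile (4.59 log2) removed 2 of the 20 genes named over 14 cows and 3 of the 20 of the Omega cows. The count at an unadjusted p under 0.05 (656) was 644 with the random replicate block, 309 with array weights, 1879 with fat content as a linear term, 327 without Control cows 302 and 304, 385 with the actin 3' to 5' difference as a covariate added after seeing the data, and 366 to 2070 when a block was left out (405, 2070, 410 and 366 without 302, 303, 304 and 308). In the Omega cows the count of 236 was 143 with the filter, 452 with array weights and 190 to 676 when a cow was left out, the highest without cow 304. The adjusted count there was 0 to 1, and the 1, without Omega cow 303, was BOLA-DQA5 (-3.62, adjusted p = 0.000443). In the Control cows the adjusted count was 46 with the spread pooled over 14 cows and 0 to 3111 when a cow was left out, the highest without Control cow 303, which leaves the cows that stood apart as the low class, and the unadjusted count of 2133 became 930 to 4670 (930, 4670, 1067, 1375 and 1286 without 302, 303, 304, 306 and 308). The 2 interaction calls became 0 with the fixed replicate block, 0 without Control cows 302 and 304 (467 unadjusted) and 0 to 1162 when a block was left out (798 to 3131 unadjusted), the highest without block 303. Over the 12 interaction alternatives RAB40C lay between -1.02 and -0.90 and XM_001788500 between 1.48 and 1.83. The causes of these moves were not tested.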

Other observations

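BOLA-DQA5, a class II histocompatibility gene, had either a low or a high value in each cow. It was at 7.70, 7.20, 7.72 and 6.65 log2 in Omega cows 302 and 304, Control cow 303 and Control cow 306, and between 3.36 and 4.06 in the other 10 cows. BOLA-DQB was raised in the same 4 cows, at 5.27, 5.60, 5.33 and 5.84, and lay between 3.70 and 4.28 elsewhere. Of these 4 cows 3 were of the low class, and the class difference of BOLA-DQA5 was -1.53 (-3.21 to 0.15, adjusted p = 0.693 in limma) over 14 cows, -2.74 over 12 cows and -2.43 (-4.13 to -0.73, adjusted p = 1.00) in the Omega cows. These genes were chosen after their values were seen.

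Of the 14 probe sets that differed by more than 1 log2 over 14 cows, 9 were lower in the high class. SAA3, CHI3L1, S100A2, UGDH and PRND were among them, and without Control cows 302 and 304 their differences were 0.73, 1.12, 0.25, -0.09 and -0.17. Of the other lower ones, LTA4H went from -1.11 to -0.26, BOLA-DQA5 from -1.53 to -2.74 and the unnamed XM_001788482 from -1.14 to -1.51, which was -0.94 in the Omega cows and -1.33 in the Control cows. PHYHIPL, AKR1C4 and TMOD4 were among the 5 higher ones, and AKR1C4, an aldo-keto reductase, was 1.24 (0.01 to 2.47, adjusted p = 0.693 in limma) over 14 cows and 0.42 over 12 cows. TMOD4 went from 1.04 over 14 cows to -0.35 over 12 cows, and was -0.59 in the Omega cows.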
